A study of Mus musculus with 28 samples.

Results

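Potassium channel genes were examined for H3K4me3 and H3K27me3 at their promoters and along their gene bodies in A2a and D1 medium spiny neurons (MSNs) of the mouse striatum. The members were all protein-coding autosomal genes of the GENCODE annotation of mm10 (GRCm38) whose symbol is Kcn followed by letters and a final number. There were 91 of them among 20807 autosomal protein-coding genes. The same symbols include 1 gene on the X chromosome, Kcnd1, which was left out by the rule. The promoter was the window from 2 kb upstream to 1 kb downstream of the annotated 5′ end of a gene, and a mark was counted where a called region overlapped the window by at least 1 bp.

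The profiles came from CUT&RUN (CnR), in which an antibody guides a nuclease to a histone mark, after INTACT purification of tagged nuclei. A2a nuclei were taken from Sun1-sfGFP;A2a-cre mice and D1 nuclei from Sun1-sfGFP;Drd1-cre mice, adults of both sexes on C57BL/6J. All groups carried the same transgene, a SUN1 nuclear membrane protein fused to sfGFP behind a stop cassette, so a nucleus was tagged where Cre driven by the A2a receptor gene or by Drd1 had removed the cassette at any age. Of 28 samples in the series, 8 contributed to the 4 region lists used here. Each list pooled 2 replicates of 1 cell type and 1 mark, with an Abcam antibody for H3K4me3 and an Active Motif antibody for H3K27me3. The labels of the D1 H3K27me3 samples conflict, with A2a as the source name but D1 in both the title and the cell type. The samples were treated as D1 here, on which every H3K27me3 difference below depends.

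Potassium channels set the resting potential of a neuron, repolarise the action potential and determine how readily the cell fires again. A channel is built from pore-forming subunits, often joined by auxiliary subunits that alter its gating or its traffic, and the subunits a neuron makes differ between cell types. In MSNs, inward rectifiers hold the cell at a hyperpolarised resting state, and voltage-gated A-type and M-type currents delay and limit firing. H3K4me3 marks the promoters of genes that are active or ready for transcription. H3K27me3 is deposited by Polycomb repressive complexes over genes kept silent, often in wide domains. A promoter that carries both marks is called bivalent.

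No list gives the spread between mice, so no test between A2a and D1 was possible and all values below describe the pooled lists. The H3K27me3 lists also differ in size. A2a had 60191 islands covering 301.0 Mb and holding 22091634 reads, and D1 had 45760 islands covering 184.1 Mb with 7878685 reads. The ratio of reads was 2.80. For H3K4me3 there were 22551 peaks in A2a and 20080 in D1. The labels were checked on marker genes. Adora2a had no promoter island in A2a and a 45 kb island in D1, whereas the island at Drd1 was 16.8 kb in A2a and 1.8 kb in D1. Of 4 A2a MSN markers, 2 had a promoter island in A2a and 4 in D1. The 2 were Drd2, at 2.6 kb against 7.8 kb in D1, and Penk, at 3.4 kb against 23.8 kb. All 4 D1 MSN markers had an island in each list. Of 4 markers of all MSNs, 3 had a promoter peak and 0 an island in each list, and Gad1 had neither mark. The interneuron markers Pvalb, Sst, Npy and Chat had no promoter peak in either list and an island in both. Of 4 markers of cortical excitatory neurons, 1 had a promoter peak in A2a (Slc17a7) and 2 in D1 (Slc17a7 and Neurod6). All 4 had an island in each list. Promoter peaks were found at 3 of 4 oligodendrocyte markers and 1 of 4 astrocyte markers in each list, and at 1 of 4 microglial markers in A2a and 0 of 4 in D1. At markers of endothelial and mural cells the counts were 1 of 4 in A2a and 0 of 4 in D1. The part of such cells in the values below was not tested.

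To show the DNA behind the classes of promoter described next, 250 bases are printed from directly upstream of the annotated 5′ end of 5 members, read 5′ to 3′ on the strand of the gene from GRCm38, with each CpG dinucleotide in capitals. Kcnq3 (chr15:66286643-66286892, minus strand, 27 CpGs) stands for promoters with H3K4me3 only in both lists. Kcnj6 (chr16:94997702-94997951, minus strand, 26 CpGs) and Kcnc2 (chr10:112270871-112271120, plus strand, 5 CpGs) were bivalent in both, and Kcnj6 held the longest promoter island of any member. Kcnip1 (chr11:33993153-33993402, minus strand, 5 CpGs) had H3K27me3 only in both lists, and Kcnv2 (chr19:27322338-27322587, plus strand, 4 CpGs) had neither mark.
Kcnq3: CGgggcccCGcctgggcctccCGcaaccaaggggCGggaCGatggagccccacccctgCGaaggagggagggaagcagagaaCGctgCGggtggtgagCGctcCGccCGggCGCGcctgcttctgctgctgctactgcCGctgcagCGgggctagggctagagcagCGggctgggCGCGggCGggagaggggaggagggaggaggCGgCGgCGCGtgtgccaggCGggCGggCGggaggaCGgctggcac
Kcnj6: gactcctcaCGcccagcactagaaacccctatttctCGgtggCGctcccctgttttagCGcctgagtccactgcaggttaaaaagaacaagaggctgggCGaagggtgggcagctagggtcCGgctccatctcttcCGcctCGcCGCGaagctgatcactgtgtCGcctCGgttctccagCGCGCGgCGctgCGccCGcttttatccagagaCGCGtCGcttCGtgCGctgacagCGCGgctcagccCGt
Kcnc2: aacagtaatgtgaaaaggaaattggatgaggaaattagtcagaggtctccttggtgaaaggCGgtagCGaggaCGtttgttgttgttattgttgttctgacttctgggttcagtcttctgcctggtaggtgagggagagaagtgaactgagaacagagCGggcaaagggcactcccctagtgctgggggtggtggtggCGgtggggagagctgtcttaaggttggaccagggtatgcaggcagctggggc
Kcnip1: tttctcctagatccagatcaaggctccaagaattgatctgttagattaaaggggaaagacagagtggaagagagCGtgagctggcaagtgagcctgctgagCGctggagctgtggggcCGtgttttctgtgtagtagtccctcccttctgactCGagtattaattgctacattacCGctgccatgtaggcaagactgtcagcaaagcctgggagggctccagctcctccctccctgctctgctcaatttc
Kcnv2: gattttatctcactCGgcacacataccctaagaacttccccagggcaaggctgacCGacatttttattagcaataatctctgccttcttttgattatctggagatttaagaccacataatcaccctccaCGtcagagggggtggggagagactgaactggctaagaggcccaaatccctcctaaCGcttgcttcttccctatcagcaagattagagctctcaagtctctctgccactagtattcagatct

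H3K4me3 was the most common state of the potassium channel promoters. A promoter peak was found at 63 of 91 members (69.2%) in A2a and at 63 in D1, beside 59.3% and 56.8% of all autosomal protein-coding genes. They were the same 63 members. Thus 0 members had a promoter peak in A2a alone, where 2.61% of all genes did, and 0 in D1 alone, where 0.154% did. H3K27me3 differed more between the lists. An island overlapped the promoter of 42 members (46.2%) in A2a and of 28 (30.8%) in D1, beside 22.4% and 15.8% of all genes. Both lists had an island at 27 members (29.7%), beside 14.7% of all genes. Bivalent promoters numbered 24 (26.4%) in A2a and 15 (16.5%) in D1, and over all genes they made up 9.84% and 5.79%. Every member that was bivalent in D1 was bivalent in A2a, as were 1127 of the 1204 genes bivalent in D1 over all genes.

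Between the lists 75 of 91 members (82.4%) kept their class, beside 88.9% of all genes. H3K4me3 alone was found in both lists at 39 of the 91 members, both marks at 15, H3K27me3 alone at 12 and neither mark at 9. Over all genes these shares were 48.3%, 5.42%, 7.84% and 27.4%. In A2a 15 members had a promoter island that D1 lacked, as did 7.65% of all genes. Of these members, 9 also had H3K4me3 and were bivalent in A2a with H3K4me3 only in D1, beside 2.64% of all genes. The other 6 had H3K27me3 only in A2a and neither mark in D1, beside 4.67% of all genes. The reverse was seen at 1 member, Kcnk16, and this count was between 0 and 3 under other settings. The counts of peaks in 1 list alone reached 2 in A2a with a stricter threshold and 2 in D1 with equal numbers of peaks.

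**Figure D1:**
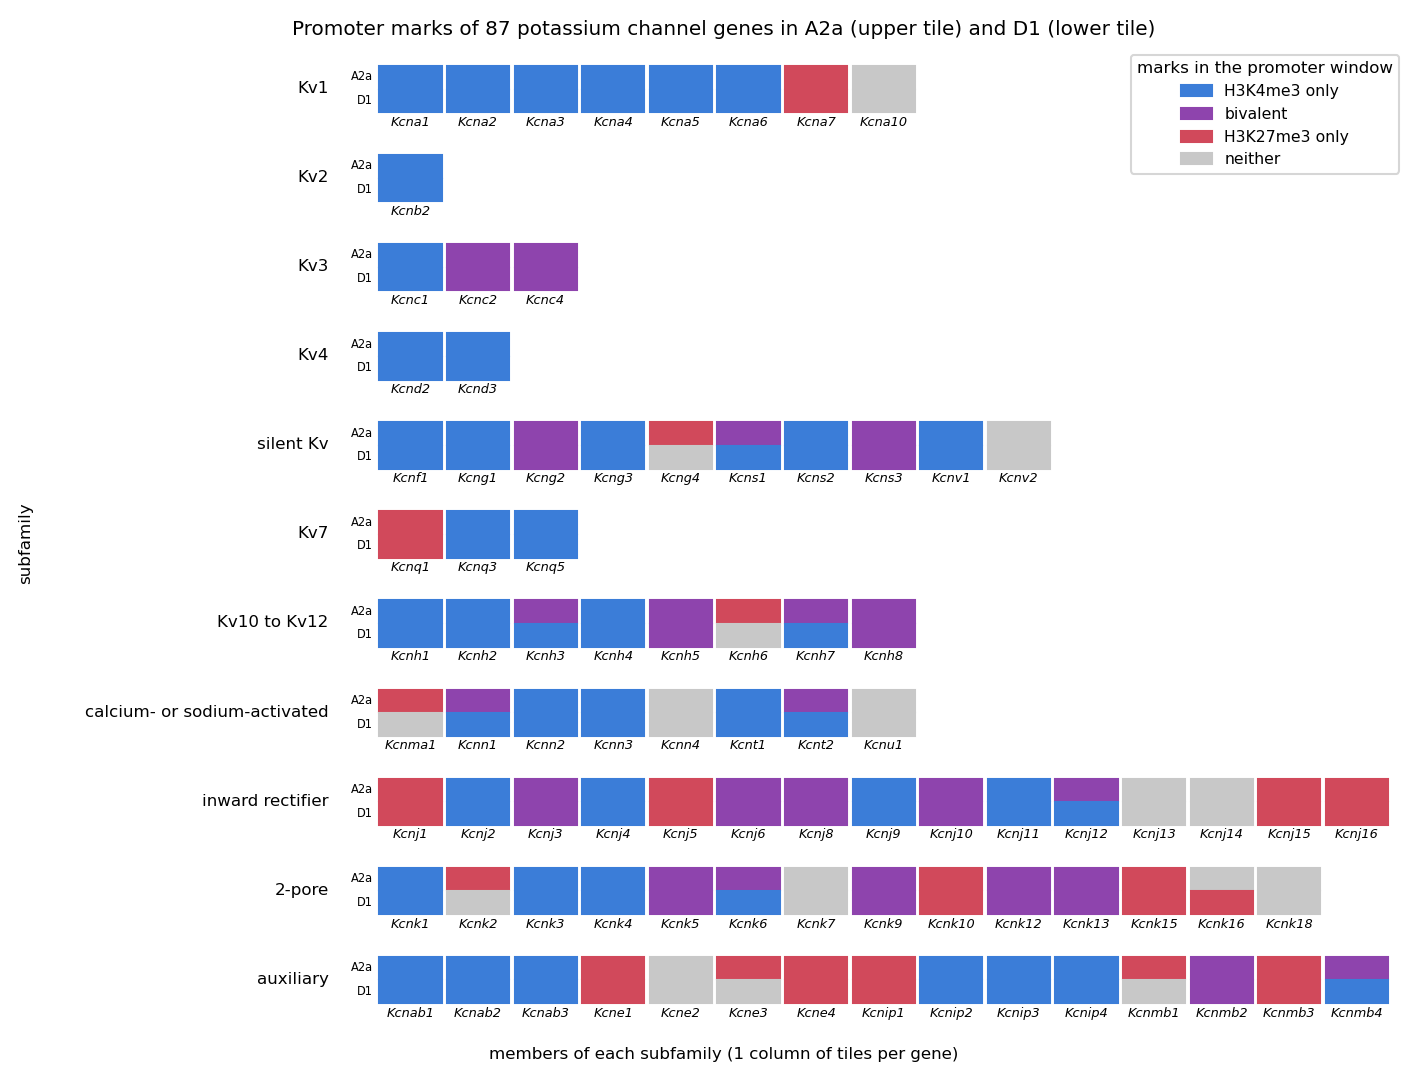
Marks in the promoter window of 87 of the 91 members, by subfamily (rows), with A2a in the upper tile and D1 in the lower tile of each gene. Colours give H3K4me3 only, bivalent, H3K27me3 only or neither; genes whose tiles differ in colour changed class between the lists, and all of those drawn except Kcnk16 have a promoter island in A2a that D1 lacks.

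Among voltage-gated pore-forming subunits, the Kv1 family was nearly uniform. Kcna1 to Kcna6 had H3K4me3 only in both lists and no island anywhere in the gene. Kcna2, a subunit of the slowly inactivating current that delays the first spike of MSNs, had one of the strongest peaks of the group. Its A2a peak spanned 2266 bp at a 5.79-fold enrichment over local background, at percentile 97.3 of that list by −log10 q, and at percentile 86.8 in D1. Kcna1 and Kcna4 had long peaks of lower enrichment. Kcna1 reached 3424 bp and percentile 54.9 in A2a and percentile 64.4 in D1, and Kcna4 was at 63.4 and 60.1. Kcna5, best known from heart muscle, was at percentile 51.3 in A2a and 43.6 in D1 with no island. The remaining Kv1 genes were Kcna7, with an island of 7 kb in A2a and 3.4 kb in D1 and no peak, and Kcna10, with neither mark.

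Kcnb2, which carries a delayed rectifier current, had H3K4me3 only, at percentile 91.6 in A2a against 83.7 in D1. The A-type genes Kcnd2 and Kcnd3 also had H3K4me3 only at the promoter, Kcnd2 at percentile 60.3 and 60.2 and Kcnd3 at 56.5 and 53.7. No island lay in the 514 kb body of Kcnd2 in either list.

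Kv3 channels permit fast spiking. Kcnc1 had H3K4me3 only, with its peak at percentile 70.0 in A2a and 51.0 in D1. Kcnc2 and Kcnc4 were bivalent in both lists. Kcnc2, known from fast-spiking interneurons, had a promoter island of 18.6 kb and 2722 reads in A2a and of 21.2 kb and 1536 reads in D1, the longest promoter island of any member in D1. Its peak was at percentile 45.9 in A2a and 31.9 in D1.

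Of 10 electrically silent subunits, which alter other Kv channels and form none alone, 5 had H3K4me3 only in both lists. Kcns3 and Kcng2 were bivalent in both. Kcns3, also known from parvalbumin interneurons, had a 13.6 kb island in each list, with 1877 reads in A2a and 916 in D1. The island at Kcng2 was 17.8 kb in A2a and 17.4 kb in D1, with 1914 and 895 reads. Kcng4 had an 8 kb island of 589 reads in A2a and none at the promoter in D1, where the nearest island was 2.08 kb away. Kcns1 was bivalent in A2a, with an island of 2.6 kb, and had H3K4me3 only in D1. Kcnv2, a partner of photoreceptor channels, had neither mark.

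In the Kv7 family, Kcnq3 and Kcnq5 had H3K4me3 only and no island in the gene. Kcnq3 is a subunit of the M-type channel that damps repetitive firing. Kcnq3 had the highest −log10 q of all members in each list, with a peak of 2918 bp at percentile 98.5 in A2a and of 2974 bp at percentile 93.6 in D1. Kcnq1, the pore of the slow cardiac current, had no promoter peak and an island of 8.4 kb and 902 reads in A2a and of 5.6 kb and 302 reads in D1.

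Among the 8 Kcnh genes (ether-a-go-go channels), all but Kcnh6 had a promoter peak. Kcnh1 was at percentile 92.2 in A2a and 82.2 in D1 with no island. Kcnh5 and Kcnh8 were bivalent in both lists, and Kcnh3 and Kcnh7 in A2a alone, with islands of 5.2 kb and 289 reads and of 4.4 kb and 292 reads. Kcnh5 had a strong peak for a bivalent promoter, at percentile 80.4 in A2a and 86.8 in D1. It was the only bivalent member in D1 whose strongest peak did not overlap an island, and the same held in A2a. Kcnh6 had no peak, and an 8.6 kb island of 559 reads in A2a alone.

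For the calcium- and sodium-activated channels, Kcnn2, Kcnn3 and Kcnt1 had H3K4me3 only in both lists. The Kcnn genes encode small-conductance (SK) channels of the afterhyperpolarisation. Kcnn3 was at percentile 89.7 in A2a and 66 in D1. Kcnn2 was at 65.4 and 67.4. Kcnn1 went the other way, at percentile 60.4 in A2a with an 8.24-fold enrichment and at 91.2 in D1 with an 11.9-fold enrichment. In both lists this peak overlapped the window but lay upstream of the annotated 5′ end and outside the gene. A 3 kb island of 244 reads lay at the Kcnn1 promoter in A2a alone. Kcnt2 was bivalent in A2a alone as well. Kcnma1, the pore of the large-conductance (BK) channel, had no peak at its annotated 5′ end and a 6.8 kb island of 470 reads in A2a, and the nearest D1 island lay 0.291 kb outside the window. A peak was found at another start of the gene, as described below. Kcnn4 and Kcnu1, known from blood cells and sperm, had neither mark.

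The 15 inward rectifiers held every class. Kcnj2 and Kcnj4, whose channels hold MSNs at rest, had H3K4me3 only in both lists and no island in the gene. Kcnj2 had the longest promoter peak of any member in A2a, 4579 bp, at percentile 55.9, and was at 62.5 in D1. Kcnj4 was at 77.6 in A2a and 55 in D1. The G protein-gated subunits differed from each other. Kcnj9 had H3K4me3 only, at percentile 64.5 and 52.4, and Kcnj3 and Kcnj6 were bivalent. Kcnj5, known from the atrium, had no peak, and islands of 9.4 kb in A2a and 3.2 kb in D1. Kcnj6, well known from midbrain dopamine neurons, had a promoter island of 54.4 kb and 6676 reads in A2a and of 13.4 kb and 910 reads in D1. Its weak peak was at percentile 21.5 in A2a against 26.3 in D1. The Kcnj3 island was 13.6 kb with 957 reads in A2a and 8.2 kb with 332 reads in D1.

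The ATP-sensitive subunits also differed. Kcnj11, the neuronal and pancreatic subunit, had H3K4me3 only at percentile 44.5 in A2a and 44.8 in D1. Kcnj8, typical of vascular mural cells, was bivalent, with an island of 8 kb and 1561 reads in A2a and of 7.2 kb and 717 reads in D1. Its peak was at percentile 37.5 and 9.60. The glial pair Kcnj10 and Kcnj16 had islands in both lists. Kcnj10, the potassium buffering channel of astrocytes, was bivalent, with an island of 5.8 kb in A2a and 6.8 kb in D1 and a peak at percentile 35.4 and 9.5. Kcnj16 had no peak, and islands of 2.2 kb and 3.4 kb. Kcnj12 was bivalent in A2a alone, with a 12.2 kb island of 579 reads, and the nearest D1 island lay 63.6 kb from the window. Kcnj1 and Kcnj15, known from kidney, had H3K27me3 only in both lists, and Kcnj13 and Kcnj14 had neither mark.

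Of the 14 2-pore genes, which carry background currents, only Kcnk1, Kcnk3 and Kcnk4 had H3K4me3 alone in both lists. Kcnk3, a subunit of acid-sensitive channels, was at percentile 53.2 in A2a and 57.0 in D1. Its close relative Kcnk9 was bivalent in both, with islands of 10.8 kb and 9.8 kb and weak peaks at percentile 9.78 and 9.65. Kcnk5, Kcnk12 and Kcnk13 were bivalent too. At Kcnk12 the D1 island was longer, 19.8 kb with 1002 reads against 8.6 kb with 928 reads in A2a, but the islands together covered 49.4% of the gene in A2a and 49.8% in D1. Kcnk2, a mechanically gated channel, had no peak at its 5′ end and a 3.6 kb island in A2a alone. At Kcnk16 a D1 island of 1.8 kb and 67 reads overlapped the window by 2 bp. Kcnk7 and Kcnk18 had neither mark.

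All 4 classes were found among the auxiliary genes. The 3 Kcnab genes, whose cytoplasmic subunits bind Kv1 channels, had H3K4me3 only in both lists. Kcnab1 was at percentile 62.5 in A2a against 65.4 in D1 and Kcnab2 at 84.0 and 86.3. The counted peak of Kcnab3 lay wholly upstream of its annotated 5′ end and reached only the edge of the window. In each list 1 further peak lay inside Kcnab3, outside the window. Of the 4 Kcnip genes, which bind Kv4 channels, Kcnip2, Kcnip3 and Kcnip4 had H3K4me3 only. Kcnip2, known from heart and striatum, was at 65.7 and 56.3, and Kcnip4 at 70.6 and 66. Kcnip1, found in interneurons, had no promoter peak and an island of 17.2 kb and 1904 reads in A2a and of 9.8 kb and 646 reads in D1. Among the Kcne genes, better known from heart and epithelia, none had a peak at its promoter in either list. Kcne1 had islands of 5.4 kb in A2a and 2.8 kb in D1, and Kcne2 had neither mark. The island at Kcne3 was found in A2a alone, with 5.4 kb and 411 reads. Of the BK partners, Kcnmb2 was bivalent in both lists with long islands of 22.8 kb and 18.4 kb and weak peaks at percentile 9.76 and 2.41. Kcnmb4, the neuronal BK partner, had a stronger peak at percentile 75.4 and 64.7. A short island of 1.8 kb and 121 reads made it bivalent in A2a. Kcnmb1, of smooth muscle, had a 6.4 kb island of 457 reads in A2a alone and no peak. This gene lies inside the body of Kcnip1 on the opposite strand, so the island also lies within Kcnip1.

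Genes outside the symbol rule that encode partners or relatives of these channels were also counted from a set list of 18. Promoter peaks were found at 13 of 18 (72.2%) in each list, beside 59.3% of all genes in A2a and 56.8% in D1. Islands were found at 7 (38.9%) in A2a and 6 (33.3%) in D1, beside 22.4% and 15.8%. Abcc8, which pairs with Kcnj11, had H3K4me3 only like its partner, at percentile 49.6 in A2a and 45.0 in D1. Abcc9, which pairs with Kcnj8, had an island of 19.4 kb in A2a and 11 kb in D1 and no peak. Dpp6 and Dpp10, partners of the Kv4 channels, were bivalent in both lists, with the Dpp10 peak at percentile 87.5 and 84.7. The Dpp10 island was 9.8 kb with 647 reads in A2a but 1.2 kb with 61 reads in D1, at percentile 9.28 of the D1 list.

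H3K4me3 peaks at the members were longer than those of all genes in the median, with a lower fold enrichment and percentile. Over the 63 members with a promoter peak, the median length was 1941 bp in A2a and 1795 bp in D1, beside 1622 and 1518 bp over all genes with one. The median fold enrichment was 5.77 in A2a and 4.89 in D1, beside 7.67 and 7.52. The median percentile was 60.7 in A2a and 57.0 in D1, beside 72.8 and 71.6. Within the members, peaks at bivalent promoters ranked lower, with a median percentile of 46 in A2a and 27.1 in D1 against 65.2 and 64.3 at promoters with H3K4me3 only. The fold enrichment did not follow this order in A2a, where its median was 6.5 at bivalent members and 5.22 at those with H3K4me3 only, while in D1 the medians were 4.69 and 5.12. Over all genes the median percentile at bivalent promoters was 43.5 in A2a and 35.4 in D1, against 76.5 and 74.2 with H3K4me3 only. The strongest peak overlapped an island at 23 of 24 bivalent members in A2a (95.8%) and at 14 of 15 in D1 (93.3%), beside 89.8% and 87.7% of all bivalent genes.

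The rank of the peaks was compared between the lists. The percentile was higher in A2a at 45 of 63 (71.4%), beside 65.4% of the 11788 genes with a peak in both lists. A gap of at least 20 points, a threshold chosen after the values were seen, was found in favour of A2a at 6 members (9.52%), beside 5.37% of all genes, and in favour of D1 at 1 (1.59%), beside 2.58%. The 6 were Kcnk5, Kcnj8, Kcns1, Kcnj10, Kcnn3 and Kcnj4. The largest gap was at Kcnk5, at percentile 32.9 in A2a against 0.951 in D1. The member in favour of D1 was Kcnn1, whose counted peak lay upstream of the annotated 5′ end and outside the gene.

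**Figure D2:**
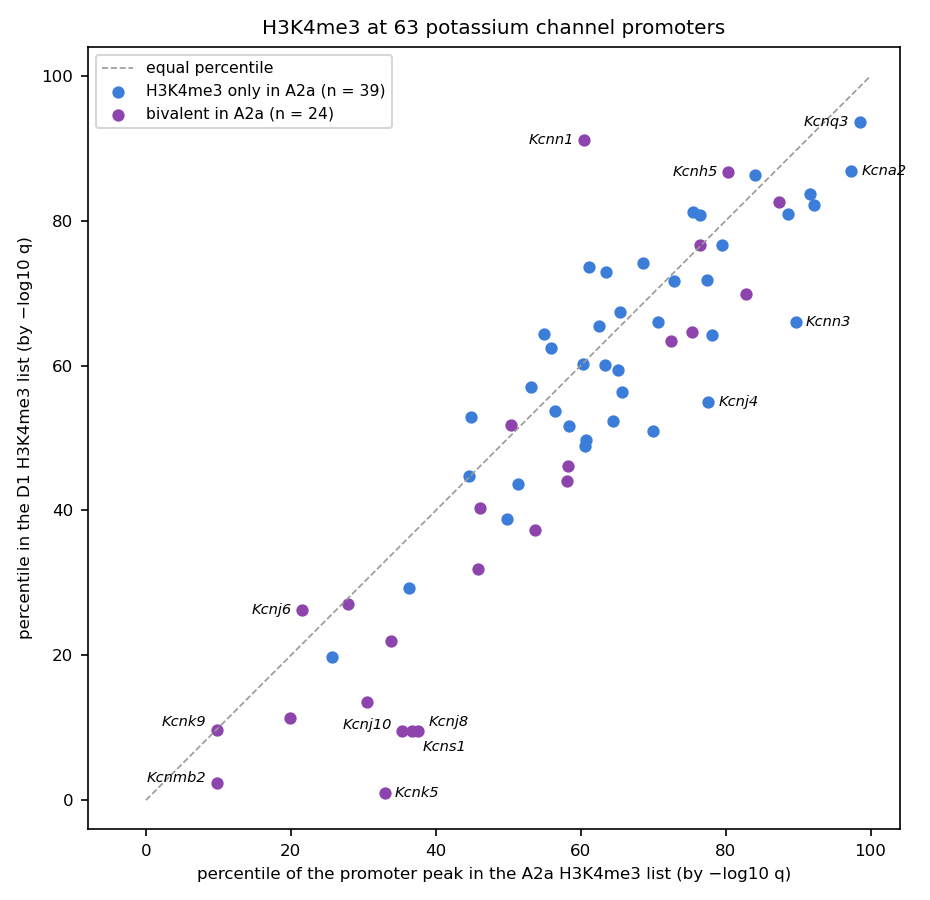
Percentile of the strongest promoter H3K4me3 peak within the A2a list (horizontal) and the D1 list (vertical), ranked by −log10 q, for the 63 members with a peak. Each point is 1 gene, coloured by its class in A2a, and the dashed line marks equal percentiles; Kcnn1 stands above the line, and Kcnk5, Kcnj8, Kcns1 and Kcnj10 lie below it at percentiles under 10 in D1.

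The promoter islands of members were, at the median, longer and held more reads than those of all genes. The median length was 7.5 kb with 581 reads in A2a and 6.8 kb with 339 reads in D1, beside 6.2 kb and 466 reads and 4.8 kb and 218 reads over all genes with a promoter island. At the 27 members with an island in both lists the ratio of reads, A2a over D1, had a median of 2.65, beside 2.61 for the 3069 such genes and 2.80 for the whole lists. The ratio ran from 0.926 at Kcnk12 to 7.34 at Kcnj6. Of the 3069 genes, 1.60% had a ratio at or below that of Kcnk12 and 5.41% had one at or above that of Kcnj6.

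An island in A2a alone was found at 15 members (16.5%), beside 7.65% of all genes, and in D1 alone at 1 (1.1%), beside 1.05%. Members had promoter islands more often than all genes did. Of genes with a promoter island in A2a, D1 lacked one at 15 of 42 members and at 1592 of 4661 genes, which are similar shares. The 15 islands were weaker than those at the 27 members with an island in both lists, with a median of 292 reads and percentile 67.1 in A2a against 928 reads and percentile 94.1. For 6 of the 15 a D1 island lay within 5 kb of the window. When A2a was limited to its strongest islands, as many as D1 had, 14 of the 15 remained (15.4%), beside 6.01% of all genes. Kcnmb4 was the one lost. The larger read total of the A2a list and the cell type cannot be told apart in these counts.

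**Figure D3:**
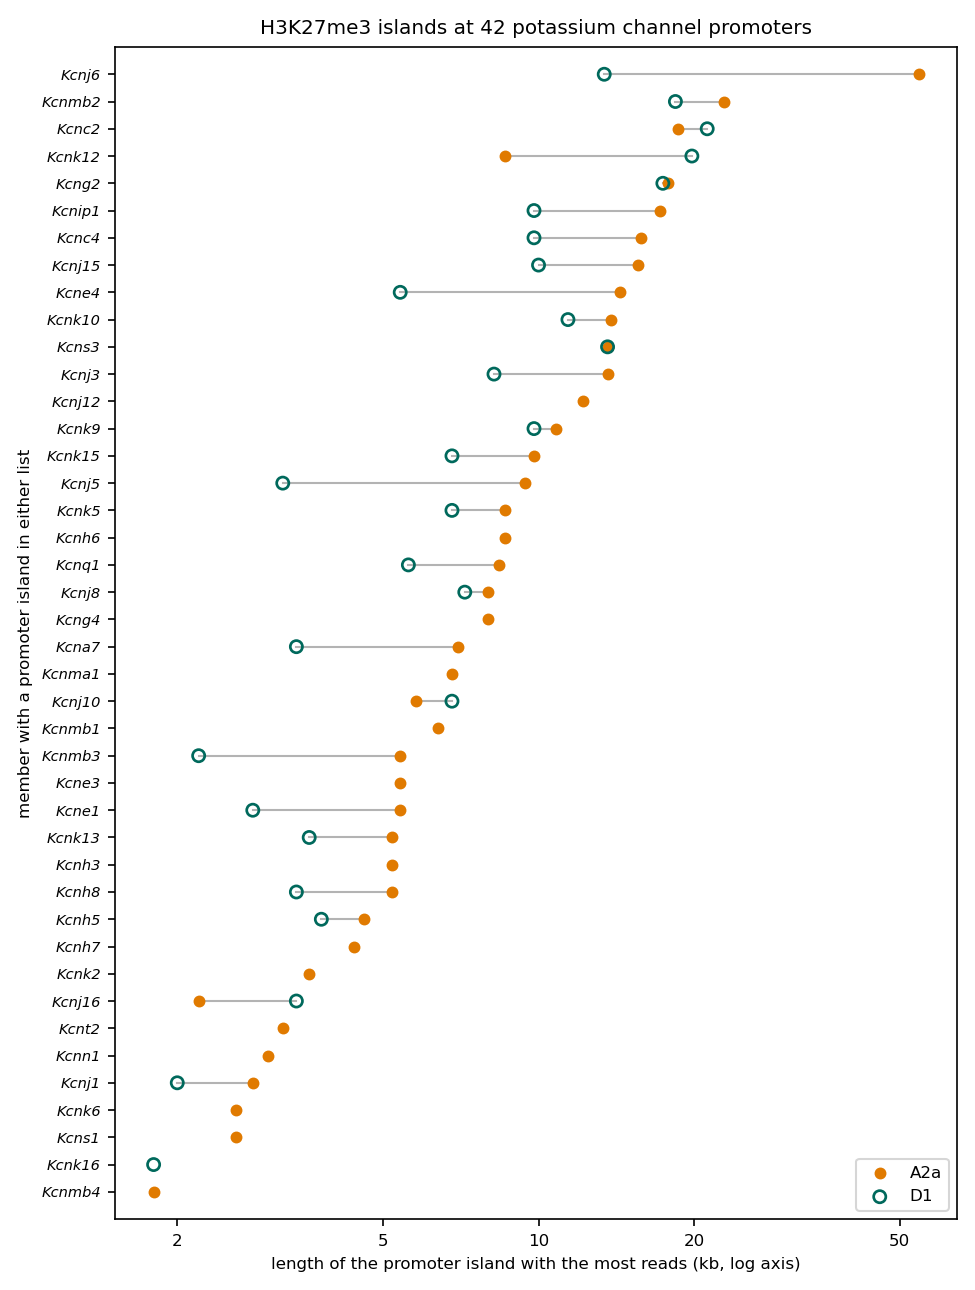
Length of the promoter island with the most reads (horizontal, log axis, kb) for 42 of the 43 members with an island in either list (rows), with filled points for A2a, open points for D1 and a grey line joining them where both lists have one. Kcnj6 spans 13.4 kb in D1 to 54.4 kb in A2a, Kcnk12 runs the other way, and rows with an A2a point alone are members without a promoter island in D1.

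Islands in the gene body gave a wider view than the promoter. At least 1 island lay in the body of 51 members (56.0%) in A2a and 35 (38.5%) in D1, beside 28.7% and 21.7% of all genes. The members are long genes, with a median of 32.3 kb beside 17.6 kb over all genes, and the part of gene length in these counts was not tested. Of the 39 members with H3K4me3 only in both lists, 33 (84.6%) had no island in the gene in either list, beside 92.9% of the 10043 genes of that kind. The exceptions were Kcnb2, Kcnd3, Kcng3, Kcnk3, Kcnk4 and Kcnip4.

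The most complete coverage was at small genes and at a few long ones. Islands covered 93.7% of the 249 kb body of Kcnj6 in A2a, in 12 islands, and 79.4% in D1, in 23. The promoter island of Kcnj6 thus differed 4.06-fold in length between the lists, while most of the gene was covered in both. Kcnip1, 364 kb long, was covered over 76.9% in A2a and 56.2% in D1. Kcnmb1 lies inside Kcnip1, so its islands were counted for both genes. Kcnmb2 was covered over 66.7% and 55.8%, and Kcnc2 over 55% in A2a and 59.3% in D1. Coverage was at least 10 percentage points higher in A2a at 28 members (30.8%), beside 14.3% of all genes, and at least 10 points higher in D1 at 2 (2.2%), beside 1.32%. This threshold was chosen after the values were seen. Any coverage in either list was found at 51 members and at 6233 of all genes. Among these, A2a was higher by that margin at 28 of 51 members and 2984 of 6233 genes, and D1 at 2 and 275.

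The 2 members with higher coverage in D1 were Kcnk16, at 51.4% in A2a and 71.9% in D1, and Kcnd3. Kcnd3 (chr3:105452330-105674002, plus strand) encodes an A-type pore-forming subunit. In A2a it held 1 island of 1.8 kb and 111 reads, covering 0.812% of the gene. In D1 it held 18 islands over 73.6 kb with 2894 reads, covering 33.2%. They lay between 14.5 and 195 kb downstream of the start, and the widest was 12.6 kb with 510 reads. Together the D1 islands held 39.3 reads per kb, and they ranked from percentile 0.205 to 95.9 of the D1 list. The part of depth or of the calling threshold in this difference was not tested. The promoter itself was free of islands in both lists, with H3K4me3 peaks of 2695 bp in A2a and 2683 bp in D1. Of all 20807 genes, 77 (0.370%) had a difference in favour of D1 at least as large. Only 6233 of the 20807 genes had any coverage in either list.

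Kcnb2 (chr1:15287254-15723750, plus strand) was marked in the opposite way. In A2a 13 islands with 5709 reads covered 18.4% of the gene, the longest 38.8 kb, and in D1 1 island of 5.4 kb and 191 reads covered 1.24%. A difference in favour of A2a at least as large was found at 2072 of the 20807 genes (9.96%). Of the 20807, only 6233 had any coverage in either list. Kcnd3 and Kcnb2 were singled out after their values were seen.

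**Figure D4:**
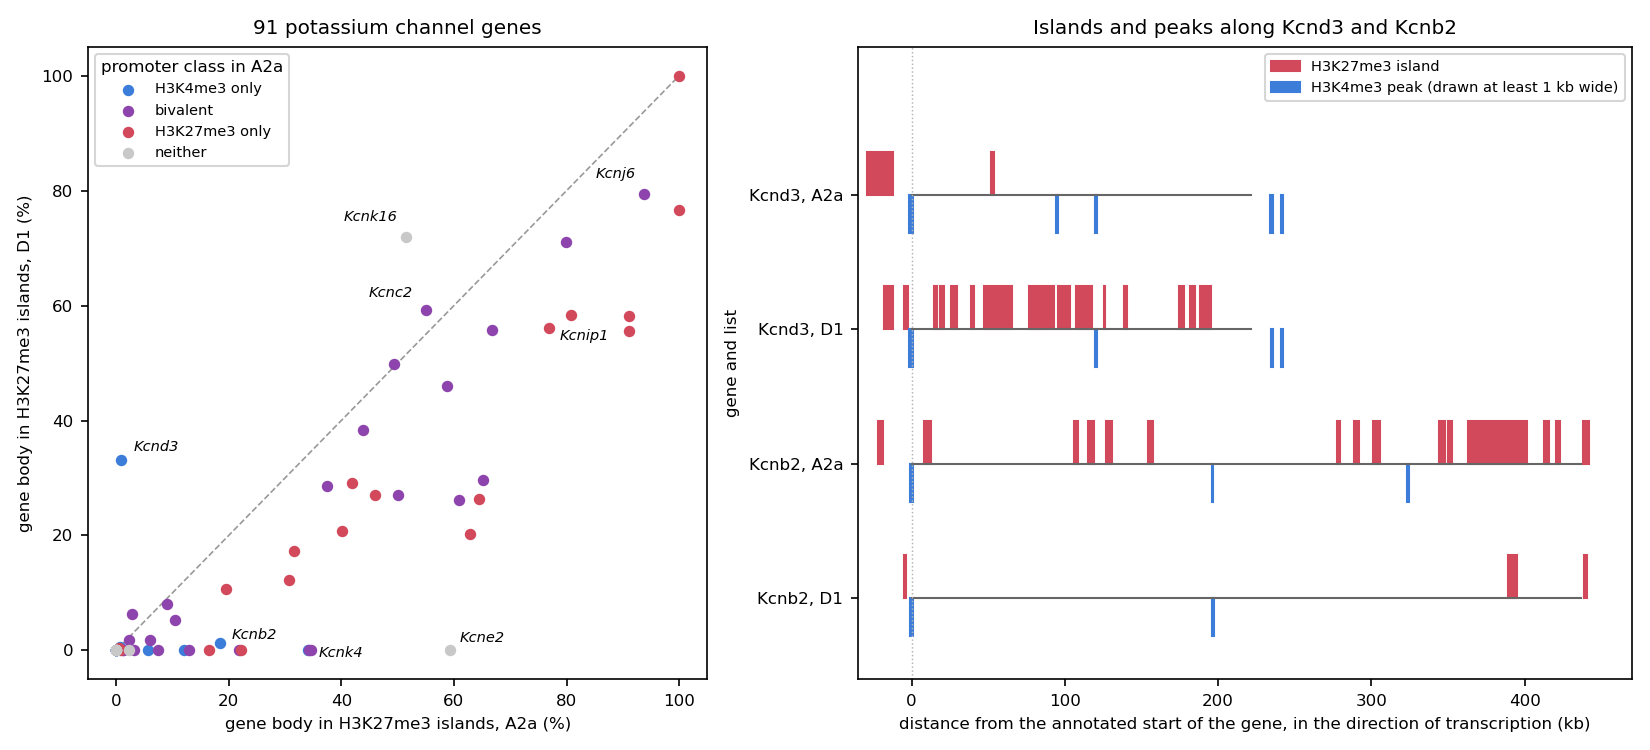
Left, share of each gene body inside H3K27me3 islands in A2a (horizontal, %) and D1 (vertical, %) for the 91 members, coloured by promoter class in A2a, with a dashed line of equality. Right, islands (red, above each line) and H3K4me3 peaks (blue, below it) by distance in kb from the start of Kcnd3 and Kcnb2; Kcnd3 holds 18 islands in D1 against 1 in A2a, and Kcnb2 holds 13 in A2a against 1 in D1.

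Several members have more than 1 annotated start, and the 5′ end of the gene is not always the marked one. When the window was placed at any annotated start, 6 further members had a peak in each list. These were Kcne3, Kcnip1, Kcnk10, Kcnk2, Kcnma1 and Kcnu1. At Kcnma1 a peak of 3243 bp in A2a and 3249 bp in D1 began 9.37 kb inside the gene, at percentile 60.0 and 68.6, outside the islands. At Kcnk2 the peak at another start was 58 kb inside the gene, at percentile 60.6 in A2a and 62.6 in D1, also outside the islands. At Kcnip1 the peak lay 149 kb inside the gene in A2a and within an island in each list, at percentile 32.5 in A2a against 11.9 in D1. Kcnk10 had such a peak at percentile 65.9 in A2a and 48.6 in D1, within an island in each list. That of Kcne3 was at percentile 43.3 in A2a, within an island, and at 17.6 in D1, outside the islands. The H3K27me3-only class of Kcnma1, Kcnk2, Kcnip1, Kcnk10 and Kcne3 in A2a therefore describes the annotated 5′ end and not every start of the gene. At Kcnu1 the window of an internal start was the one with the peak, at percentile 38.3 in A2a against 22.7 in D1, and the window at its 5′ end also holds the start of Ash2l.

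CpG content was described at the start of each gene. In the window from 250 bases upstream to 50 downstream of the 5′ end, the start was called CpG-rich at a CpG observed over expected ratio of at least 0.6 and a GC content of at least 50%. By this rule 32 of 91 members (35.2%) were CpG-rich, beside 42.5% of all genes. Among members, 13 of 24 bivalent promoters in A2a (54.2%) were CpG-rich, as were 17 of 39 with H3K4me3 only (43.6%), 2 of 18 with H3K27me3 only (11.1%) and 0 of 10 with neither. Over all genes these shares were 54.2%, 70.0%, 14.7% and 2.56%. The H3K4me3-only members thus had a lower share of CpG-rich starts than the genes of that class as a whole. Kcna2, with a peak at percentile 97.3 in A2a, had 4 CpGs in its window, and Kcnf1 had 3. Kcnc2, Kcnip1 and Kcnv2, whose sequences are printed above, each had 4 or 5 CpGs upstream of the start and fell into different classes.

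**Figure D5:**
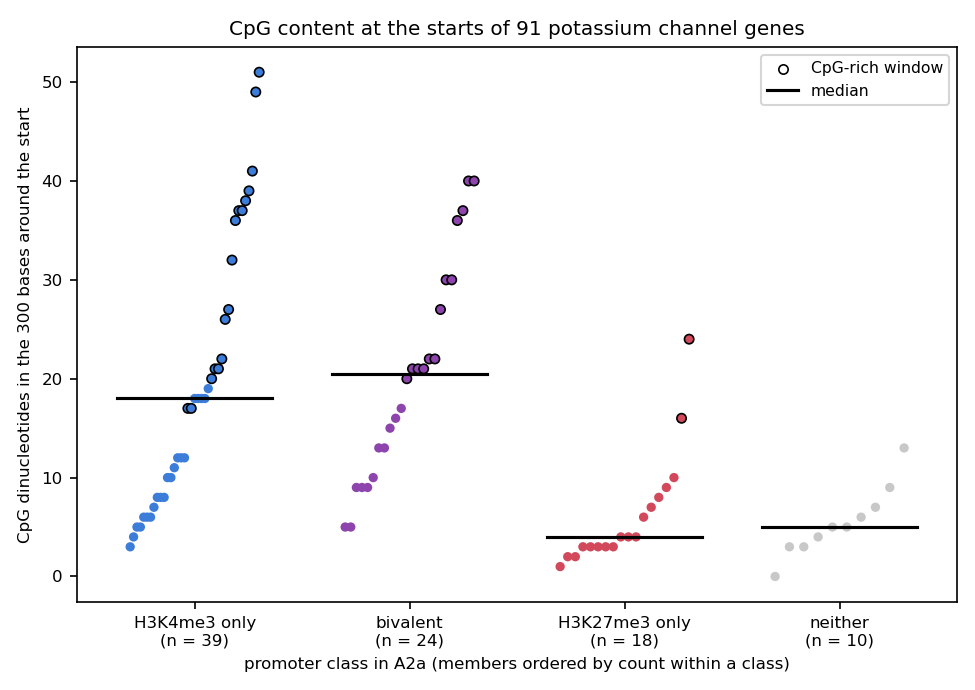
Number of CpG dinucleotides in the 300 bases around the annotated start of each of the 91 members, by promoter class in A2a and ordered by count within a class. Points with a black outline are CpG-rich windows and bars are medians, which were 18 for H3K4me3 only, 20.5 for bivalent, 4 for H3K27me3 only and 5 for neither.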

How the data were processed

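CnR was analysed in 4 lists of called regions, each made by the authors from 2 pooled replicates, for H3K4me3 (Abcam) and H3K27me3 (Active Motif) in A2a and D1. The other 20 of 28 samples were not analysed here. The authors mapped reads to mm10, removed duplicates and alignments of low mapping quality, and selected inserts by length. The submitters' processing notes name Bowtie2 2.1.0 and SAMtools 0.1.19. H3K4me3 peaks were called with MACS2, and the deposited columns hold the ratio (fold) to local background, −log10 p, −log10 q and an integer score. H3K27me3 islands were called with SICER against a control that is not given in the sources used here, at 200 bp windows, 600 bp gaps and 0.01 false discovery rate, and the deposited value is the count of reads in an island, without normalization between lists. Library totals are not known from the lists, and the paper gives only a range of reads over its samples. The depth behind each list is therefore unknown, and read counts of A2a and D1 side by side are not normalized to each other. The paper reported greater signal in peaks in A2a for both marks. It proposed sources other than biological variation, which was not tested here, and then normalized its signal on genes of constant expression.

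From these, overlaps with genes of GENCODE vM21 were computed with Python 3.11.15, pandas 2.3.3 and numpy 2.4.6. Sequence was read with pysam 0.24.0 from GRCm38.p6, and 0 regions ran past an autosome end. Where several regions lay in a window, the peak with the highest −log10 q or the island with the most reads was used. Percentiles are within a list. A class is bivalent, H3K4me3 only, H3K27me3 only or neither. The overlap procedure was tested on 1997 simulated regions. It recovered 2193 of the 2193 gene windows that a direct comparison found overlapped, with 0 false ones. Both used the same definition of the window, so that definition was not tested. No statistical test compares cell types, since no list keeps its replicates apart. Counts are given beside the same share over all autosomal protein-coding genes.

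The members and lists were chosen with earlier results of these data known. Values are given for members with a peak or island in 1 list alone (up to 10 per direction by strength), the 5 longest promoter islands and the 5 strongest peaks of each list, and a set chosen by known role. Other members named with values were added to complete a subfamily. The alternatives changed the window, the start, the overlap, the thresholds, the number of regions, the merging of islands, the X-linked member and the CpG criterion. A few members are counted but not reported by name here.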

Additional observations from a re-analysis of the deposited data

How the results depend on the processing

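The 13 results were recomputed under 11 alternatives, which gave 90 values, and 83 of these stayed within the limits set for a count or share. The counts of members with a peak, with an island, bivalent, with an island in A2a alone and with an island in the gene body were among them. These limits left room for change. Bivalent members ran from 21 to 32 in A2a, 24 as reported, and from 13 to 21 in D1, 15 as reported. Members with a promoter island ran from 40 to 47 in A2a, 42 as reported, and from 26 to 36 in D1, 28 as reported. The count of members with an island in D1 alone, 1 as reported, was 3 with a window of 5 kb on either side, 0 with an overlap of at least 200 bp, 0 with islands of at least 2000 bp and 2 when A2a was limited to as many peaks and islands as D1. The count with a peak in A2a alone, 0 as reported, was 2 with a −log10 q of at least 5, and that with a peak in D1 alone, 0 as reported, was 2 with equal numbers of peaks. The share of CpG-rich starts was 22% under the stricter criterion. The D1 island at Kcnk16, of 1.8 kb with an overlap of 2 bp, was removed by the limits on overlap and length, and the equal numbers remove the weakest A2a regions. The cause of the other changes was not tested. No paired analysis was possible because each list pools its replicates, and leaving out a replicate was impossible for the same reason. The depth of each library behind the lists is unknown, so a missing island may lie below the threshold of its list.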
